A study of Homo sapiens with 12 samples.

Results

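DDIT4 and 8 regulators or subunits of the kinase complex mTORC1 were followed in MM.1S cells, an established line grown from human multiple myeloma, a cancer of plasma cells. The 9 genes were SESN1, SESN3, TSC1, TSC2, DEPTOR, RHEB, MTOR and RPTOR beside DDIT4, out of 17710 genes measured. They were chosen by their place in the pathway with their measured values in these same arrays known. Their values are therefore given as a description, with no p-value. They were part of the fits over all genes, so the number of them called is printed beside the share of all genes called, and nothing is supported with it.

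Cultures in RPMI-1640 medium with 10% fetal bovine serum came from 3 independent experiments, and each experiment gave 1 array to each of 4 groups, or 12 arrays in all. Control cells were left untreated. The PIM group received 100 nM PIM447, an inhibitor of the PIM family of serine/threonine kinases, for 24 h. The Pd group received 200 nM pomalidomide, which redirects the cereblon ubiquitin ligase to new substrates, with 5 nM dexamethasone, a synthetic glucocorticoid, for 15 h. The PIM-Pd group received all 3 drugs at those doses for 10 h. Treated cells were taken at 74 to 81% viability. Hours of treatment differed between the groups, and hours in culture are not given for control. Drug and time therefore cannot be told apart in any comparison below. RNA was hybridised to Clariom S human arrays, and each value is a log2 expression value from the RMA procedure, so a difference of 1 is a 2-fold difference. No detection call was used, and 3 arrays a group limit the precision. Array medians lay between 4.81 and 4.89.

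mTORC1 is a protein kinase complex that drives protein synthesis and cell growth when nutrients, growth factors and energy are plentiful. The small GTPase RHEB switches it on, and the TSC1-TSC2 complex switches RHEB off. Stress proteins such as DDIT4 (also called REDD1) and the sestrins restrain the pathway upstream of RHEB or within its amino acid sensing branch. Myeloma cells carry a heavy load of protein synthesis, and DEPTOR, a protein that binds mTOR and restrains it, is known for its high expression in part of these tumours.

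DDIT4 (ENSG00000168209_at) is a stress gene whose transcription is known to respond to glucocorticoids, hypoxia, DNA damage and amino acid shortage. Its log2 values in control replicates 1, 2 and 3 were 5.20, 5.42 and 5.15, and in the PIM group 5.42, 5.27 and 5.16. In the Pd group they were 9.29, 9.20 and 9.34, and in the PIM-Pd group 9.10, 9.16 and 9.39. The 6 arrays with pomalidomide and dexamethasone were all high, the 6 arrays without them all low, and the values of the 2 sets did not come near each other. Within each set the groups overlapped: PIM with control, and PIM-Pd with Pd.

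Against control, the DDIT4 mean was 4.02 ± 0.12 log2 higher in the Pd group (standard error from the fit, n = 3 arrays a group), a 16.2-fold difference. In the PIM-Pd group it was 3.96 ± 0.12 higher, a 15.6-fold difference. By absolute size DDIT4 stood at rank 1 of 17710 genes in both of these comparisons, which share their control arrays, and at rank 1 again in PIM-Pd against PIM, with a difference of 3.94 ± 0.12. PIM447 on its own went with a difference of 0.02 ± 0.12 from control, and PIM-Pd differed from Pd by -0.06 ± 0.12. From low to high the group means were 5.26 in control, 5.28 in PIM, 9.22 in PIM-Pd and 9.28 in Pd. The first 2 did not differ beyond their spread, nor did the last 2. The departure from additivity on the log2 scale, PIM-Pd minus PIM minus Pd plus control, was -0.08 ± 0.17. With 1 array left out, these 3 small values ran from -0.044 (PIM replicate 1) to 0.10 (control replicate 2) for PIM against control, from -0.14 (PIM-Pd replicate 3) to 0.00089 (PIM-Pd replicate 1) for PIM-Pd against Pd, and from -0.17 (PIM-Pd replicate 3) to -0.012 (PIM replicate 1) for the departure. RNA was taken from whole cultures, so a change in the share of cells that express a gene and a change in the RNA of each cell cannot be told apart.

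**Figure D1:**
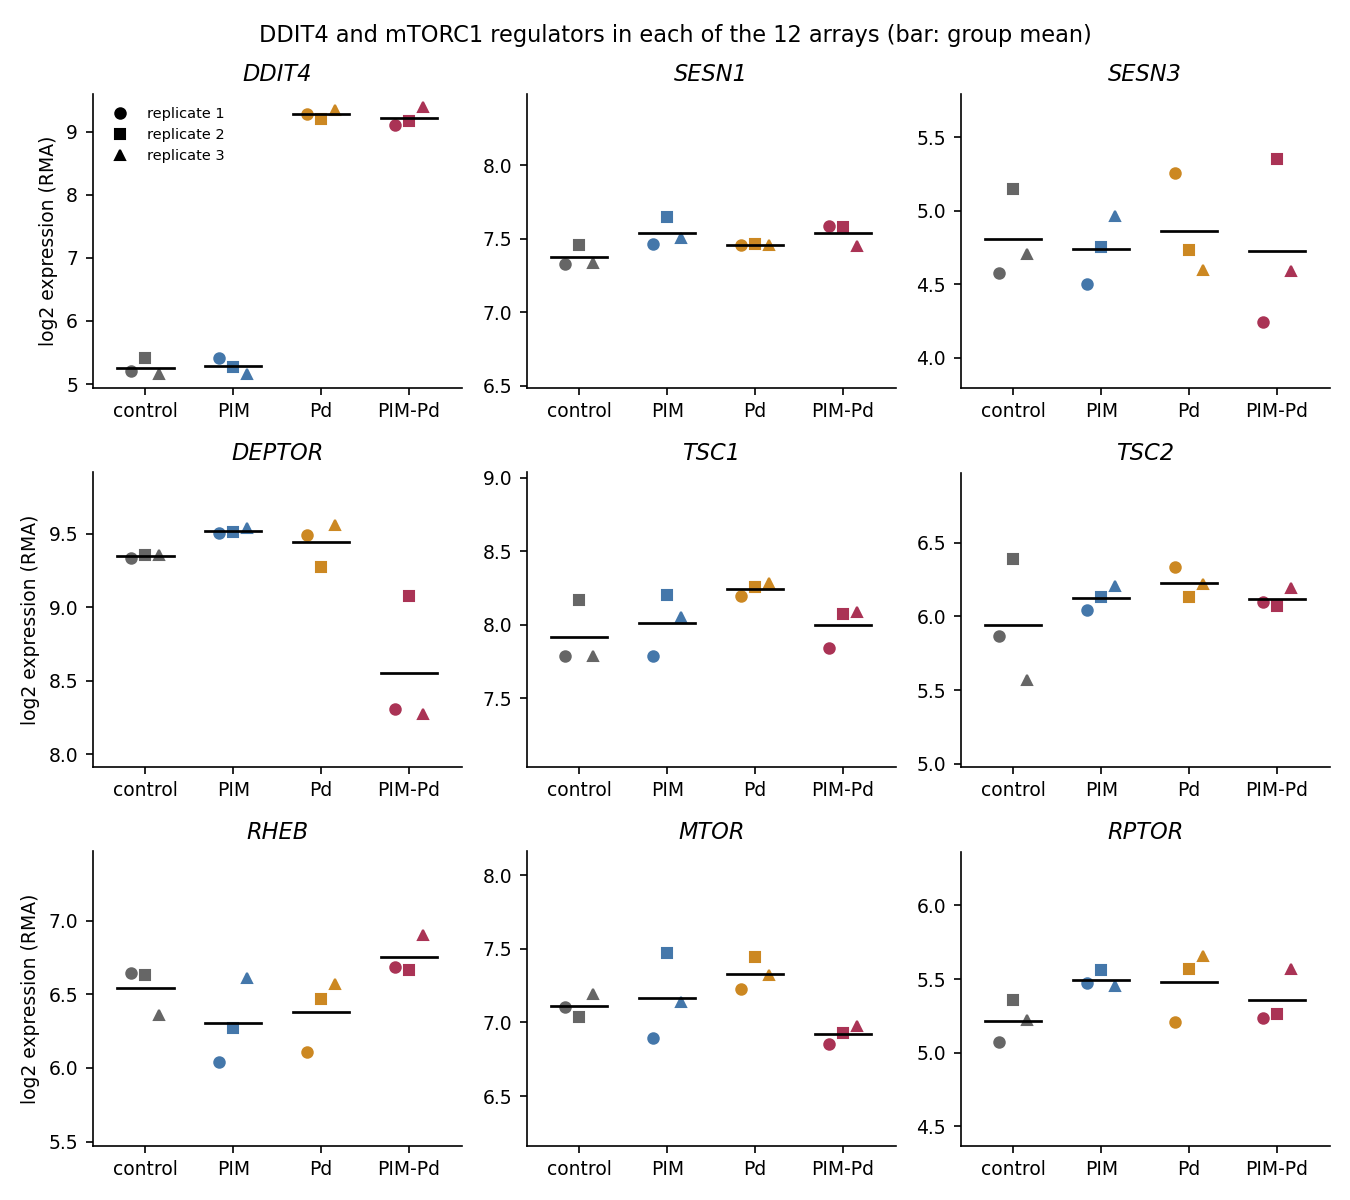
Log2 expression (RMA, vertical axis) of DDIT4 and 8 mTORC1 regulators in the 3 arrays of each group, with symbols for replicate number and a bar at the group mean; each panel has its own axis spanning at least 2 log2 units. DDIT4 was near 5.3 in control and PIM arrays and above 9 in Pd and PIM-Pd arrays, and DEPTOR was lower in the PIM-Pd arrays.

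The promoter of DDIT4 is shown because DDIT4 differed most, together with that of CYSLTR1, the gene whose pattern over the arrays was closest to it (below). Both are the 250 bases before the start of transcription as annotated by RefSeq on GRCh38.p14, chr10:72273674-72273923 on the plus strand for DDIT4 and chrX:78327612-78327861 on the minus strand for CYSLTR1, written 5′ to 3′ in the direction of the gene. Capitals mark letters found in a search of both strands for AGAACA (half-site of the glucocorticoid receptor), AGAACA and TGTTCT with 3 bases between them (its full element), GTAAACA (FOXO factors), CACGTG (E-box), TGATGNAA (core of the ATF4 element) and ACGTG (core of the hypoxia element, which also lies within CACGTG).
DDIT4: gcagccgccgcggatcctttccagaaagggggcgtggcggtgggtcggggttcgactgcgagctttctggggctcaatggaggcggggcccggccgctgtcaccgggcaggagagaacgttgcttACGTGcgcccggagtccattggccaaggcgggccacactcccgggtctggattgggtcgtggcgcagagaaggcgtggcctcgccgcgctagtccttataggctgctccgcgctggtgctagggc
CYSLTR1: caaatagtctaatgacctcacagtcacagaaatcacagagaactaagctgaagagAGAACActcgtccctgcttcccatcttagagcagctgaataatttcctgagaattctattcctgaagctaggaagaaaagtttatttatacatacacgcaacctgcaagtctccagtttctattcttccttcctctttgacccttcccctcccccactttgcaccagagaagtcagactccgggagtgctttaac

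In DDIT4 the search found ACGTG, 125 bases before the start, letters held by 18.5% of the 35116 promoter windows of that length. In CYSLTR1 it found AGAACA, 195 bases before the start, held by 12.4% of windows. Of the 10 genes most correlated with DDIT4 (below), 9 had a promoter to search. AGAACA was present for 4 of these (CYSLTR1, ANTXR1, SMAP2 and TRAF3IP3), and some of them had several windows. Of the 9 genes of the opening, DDIT4 among them, 8 had a promoter in the table, DEPTOR being the one without. Some genes have several annotated starts, and the 8 had 11 windows, 3 of them for SESN1 and 2 for TSC2. ACGTG was present in 3 of the 11 windows (those of DDIT4 and RHEB and 1 of TSC2). CACGTG (6.34% of windows) and TGATGNAA (3.14%) were present in 1 of the 11, the same window of TSC2. None of the 11 held AGAACA or the full glucocorticoid element (0.00285% of windows), and none held GTAAACA (2.98%). A match describes letters and is not a binding site, and a window without a match says nothing of sites elsewhere.

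CYSLTR1 encodes a receptor for cysteinyl leukotrienes. Its log2 values in the 3 control arrays were 7.98, 7.87 and 7.80, in the PIM arrays 7.62, 8.03 and 8.04, in the Pd arrays 10.20, 10.00 and 10.25, and in the PIM-Pd arrays 10.24, 9.81 and 10.21. Again the 6 arrays with pomalidomide and dexamethasone lay above the 6 without. Likeness to DDIT4 was measured as the Pearson correlation of log2 values over the 12 arrays, among the 366 genes whose group means spanned at least 1 log2 unit, 358 of which could be named. The 12 arrays fall into those 2 sets of 6, so the correlation mostly reflects this step, and genes were ranked on it without a test. CYSLTR1 had r = 0.989, followed by ATP2B4 (a plasma membrane calcium pump) and TPBG (a cell surface glycoprotein) at 0.986, ANTXR1 (an anthrax toxin receptor) at 0.985 and RBFOX2 (a splicing regulator) at 0.982. CAPN2 (a calpain protease), SMAP2 and TRIM38 followed at 0.981, 0.980 and 0.980, then TRAF3IP3 at 0.979 and OSBPL10 at 0.977.

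The 10 were picked for their likeness to DDIT4, so the direction of their differences follows from the choice. All 10 were higher in Pd than in control, by between 0.93 ± 0.10 log2 for TRAF3IP3 and 3.05 ± 0.21 for TPBG. PIM-Pd against control gave differences from 1.09 ± 0.10 for TRAF3IP3 to 2.81 ± 0.21 for TPBG. DDIT4, at 4.02 and 3.96, lay beyond that range in both, which follows from its rank of 1 among all genes. The control means of TPBG (3.95) and OSBPL10 (4.21) were below the median of every array, and how far background limits their differences is unknown.

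**Figure D2:**
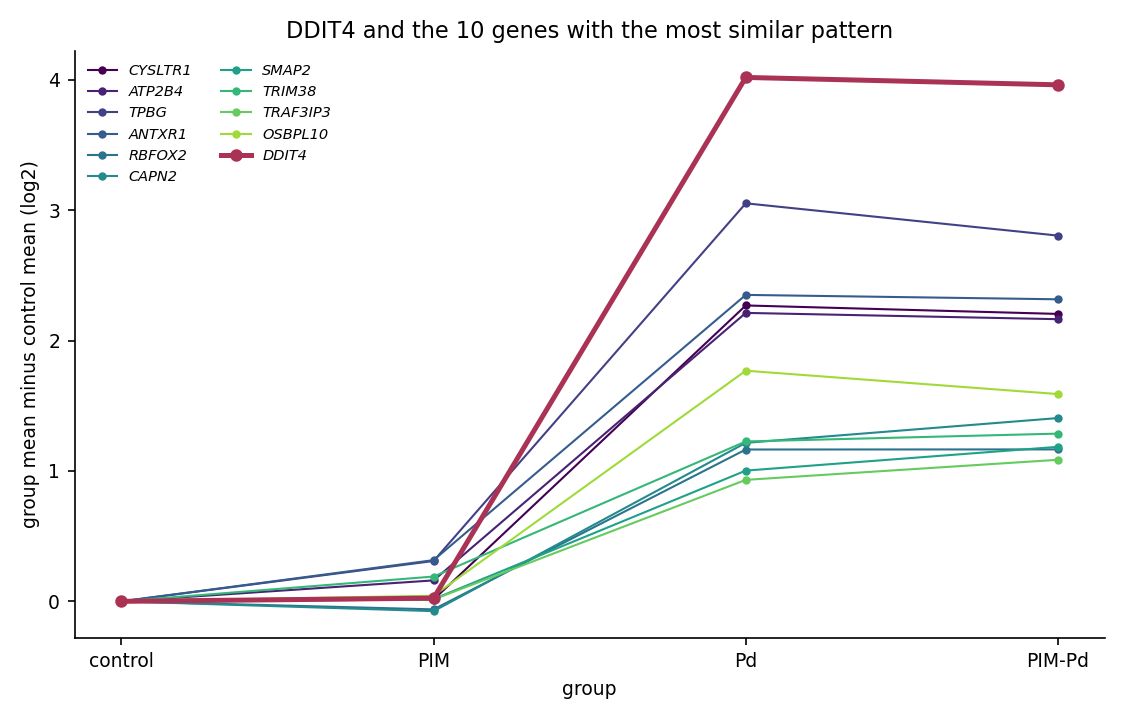
Group mean minus control mean (log2, vertical axis) in the 4 groups for DDIT4 (thick line) and the 10 genes with the highest correlation with it over 12 arrays. All 11 lines step up between the groups without and with pomalidomide and dexamethasone, which follows from the choice by correlation. The DDIT4 line has the largest step, 4.02 in Pd.

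SESN1 and SESN3 encode sestrins, stress proteins that restrain mTORC1 through its amino acid sensing branch and through the energy sensor AMPK. SESN1 (ENSG00000080546_at) ranged from 7.33 to 7.64 over the 12 arrays, with group means of 7.37 in control, 7.46 in Pd, 7.54 in PIM and 7.54 in PIM-Pd. Its PIM arrays (7.46, 7.64 and 7.51) stood just above its control arrays (7.33, 7.46 and 7.33), a difference of 0.16 ± 0.10. SESN3 (ENSG00000149212_at) was the most uneven of the 9 within groups: its PIM-Pd arrays were at 4.24, 5.35 and 4.59, a standard deviation of 0.57. Its 4 group means, from 4.73 to 4.86, did not differ beyond that spread.

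TSC1 and TSC2 together form the complex that inactivates RHEB. TSC1 (ENSG00000165699_at) was at 7.79, 8.17 and 7.79 in control and at 8.19, 8.26 and 8.28 in Pd. The Pd arrays lay above the control arrays without overlap, by 0.33 ± 0.14, although control replicate 2 came within reach of them. With all 3 drugs TSC1 was at 7.84, 8.07 and 8.08, within the range of control, and differed from the Pd arrays by -0.25 ± 0.14. For TSC2 (ENSG00000103197_at) the control arrays themselves were the widest set, at 5.87, 6.39 and 5.57, and every treated array lay between 6.04 and 6.34. The group means of TSC2 therefore did not differ beyond the control spread. Without control replicate 2 the TSC2 difference from control moved from 0.29 to 0.51 in Pd, from 0.19 to 0.41 in PIM and from 0.18 to 0.40 in PIM-Pd. Without control replicate 3 the 3 differences were 0.10, -0.00074 and -0.0067, so for PIM and PIM-Pd the sign was not kept.

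DEPTOR (ENSG00000155792_at) encodes the inhibitor bound to mTOR itself. Its log2 values were 9.34, 9.36 and 9.35 in control and 9.50, 9.51 and 9.54 in PIM. The Pd arrays read 9.49, 9.27 and 9.56, and the PIM-Pd arrays 8.31, 9.08 and 8.27. Every PIM-Pd array lay below every array of the other 3 groups, and replicate 2 of PIM-Pd lay much nearer to them than the other two did.

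Against control, the DEPTOR mean was 0.17 ± 0.17 log2 higher in PIM, 0.09 ± 0.17 higher in Pd and differed by -0.80 ± 0.17 in PIM-Pd, which is 1.74-fold lower. The standard error is pooled over the 4 groups and is not the spread of the groups compared. The standard deviation was 0.0099 in control, 0.018 in PIM, 0.15 in Pd and 0.45 in PIM-Pd. Set against Pd, PIM-Pd differed by -0.89 ± 0.17, and set against PIM by -0.97 ± 0.17. In absolute size the PIM-Pd difference stood at rank 540 of 17710 genes against control, 194 against PIM and 13 against Pd. Without replicate 2 of PIM-Pd the 3 differences were -1.06, -1.23 and -1.15 against control, PIM and Pd, and without replicate 3 of PIM-Pd they were -0.65, -0.82 and -0.75. The difference of Pd from control was 0.033 without Pd replicate 3 and 0.18 without Pd replicate 2. The group means, from low to high, were 8.55 in PIM-Pd, 9.35 in control, 9.44 in Pd and 9.52 in PIM. Of these, Pd overlapped both control and PIM.

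RHEB (ENSG00000106615_at), the GTPase that activates mTORC1, stood at 6.64, 6.63 and 6.36 in control and at 6.68, 6.67 and 6.90 in PIM-Pd. The PIM-Pd arrays were above all other arrays, but the lowest exceeded the highest control array by little, and the mean difference was 0.21 ± 0.16. By experiment it was 0.041, 0.034 and 0.54, and without control replicate 3 the mean difference was 0.11. The difference was 0.37 ± 0.16 against Pd (6.11, 6.47 and 6.57) and 0.44 ± 0.16 against PIM (6.04, 6.27 and 6.61). Without Pd replicate 1 the difference from Pd was 0.23. PIM, Pd and control overlapped each other for RHEB.

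MTOR and RPTOR encode the kinase and the subunit that brings substrates to it. MTOR (ENSG00000198793_at) was at 7.10, 7.04 and 7.19 in control, at 7.23, 7.44 and 7.32 in Pd and at 6.85, 6.93 and 6.98 in PIM-Pd. These 3 groups did not overlap, with Pd on top and PIM-Pd at the bottom, while the PIM arrays (6.89, 7.47 and 7.14) spread over all of them. The MTOR mean differed from control by 0.22 ± 0.13 in Pd and by -0.19 ± 0.13 in PIM-Pd, and PIM-Pd differed from Pd by -0.41 ± 0.13. RPTOR (ENSG00000141564_at) ranged from 5.07 to 5.66. Its PIM arrays (5.47, 5.56 and 5.45) lay above control (5.07, 5.35 and 5.22) by 0.28 ± 0.14, and its Pd and PIM-Pd arrays overlapped with both.

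**Figure D3:**
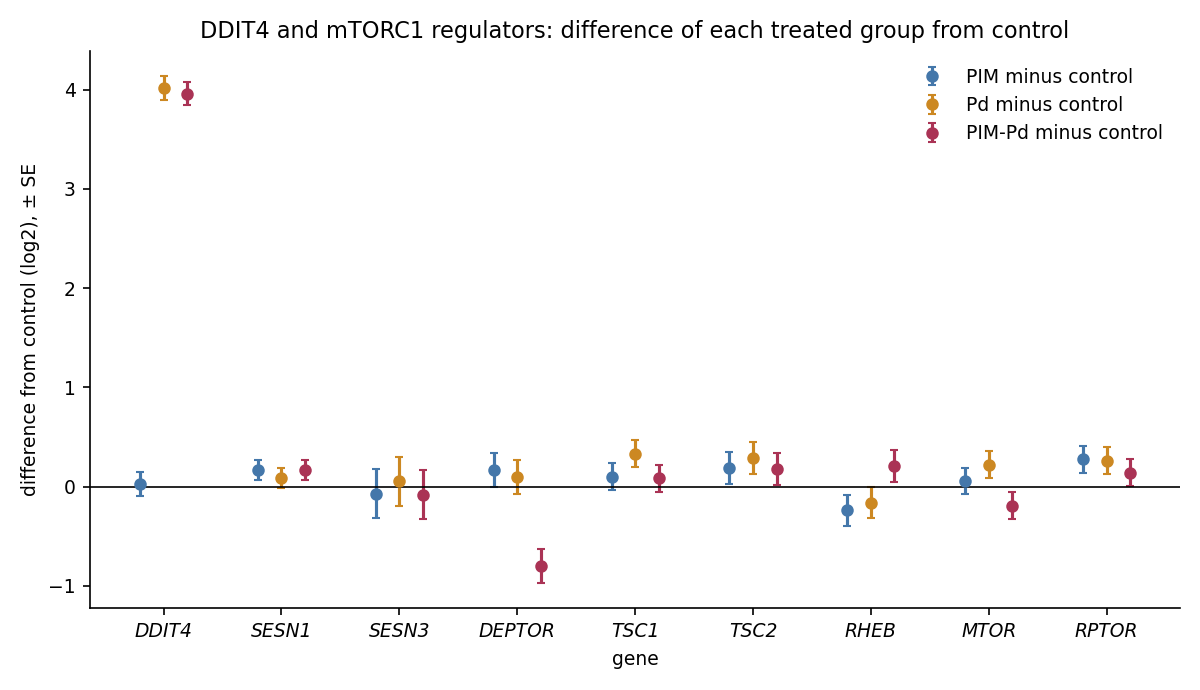
Difference of each treated group from control (log2, vertical axis) for DDIT4 and 8 mTORC1 regulators, as a point with its standard error from the fit (3 arrays a group). DDIT4 stood at 4.02 and 3.96 in Pd and PIM-Pd, DEPTOR at -0.80 in PIM-Pd, and the other 7 genes between -0.24 and 0.33.

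How far these genes stood apart has to be read beside all 17710 genes. A gene is called here when its adjusted p in limma, with Benjamini-Hochberg adjustment over all genes, is below 0.05. In PIM against control, 0% of genes were called, while 1098 had an unadjusted p below 0.05, and none of the 9 was called. Groups without overlap, PIM higher, were seen for 3 of the 9 (SESN1, DEPTOR and RPTOR) beside 5.99% of all genes, and PIM lower for 0 beside 4.99%.

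In Pd against control, 1 of the 9 (DDIT4) was called beside 5.42% of all genes. There, 3 of the 9 (DDIT4, TSC1 and MTOR) were higher without overlap beside 12.4% of all genes, and 0 lower beside 12.3%. In PIM-Pd against control, 2 of the 9 (DDIT4 and DEPTOR) were called beside 9.44%. DDIT4 and RHEB were higher without overlap beside 12.2% of all genes, and DEPTOR and MTOR lower beside 12.5%.

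PIM-Pd and Pd differ in PIM447 and also in hours of treatment (10 h against 15 h). In PIM-Pd against Pd, 0 of the 9 were called beside 0.0791%, with 1518 genes at an unadjusted p below 0.05 in limma. RHEB was higher without overlap beside 6.66% of all genes, and DEPTOR, TSC1 and MTOR lower beside 7.79%. PIM-Pd and PIM differ in pomalidomide with dexamethasone and also in hours of treatment (10 h against 24 h). In PIM-Pd against PIM, 2 of the 9 (DDIT4 and DEPTOR) were called beside 5.66%. DDIT4 and RHEB were higher without overlap beside 8.45%, and DEPTOR lower beside 9.35%. For the departure from additivity, 0 of the 9 were called beside 0.0169% of all genes. Since the choice of the genes drew on these contrasts, nothing is read from the counts. Over the 9 genes the median difference was 0.10 in PIM, 0.22 in Pd and 0.14 in PIM-Pd against control, beside medians over all genes of 0.0099, -0.0089 and 0.0084.

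**Figure D4:**
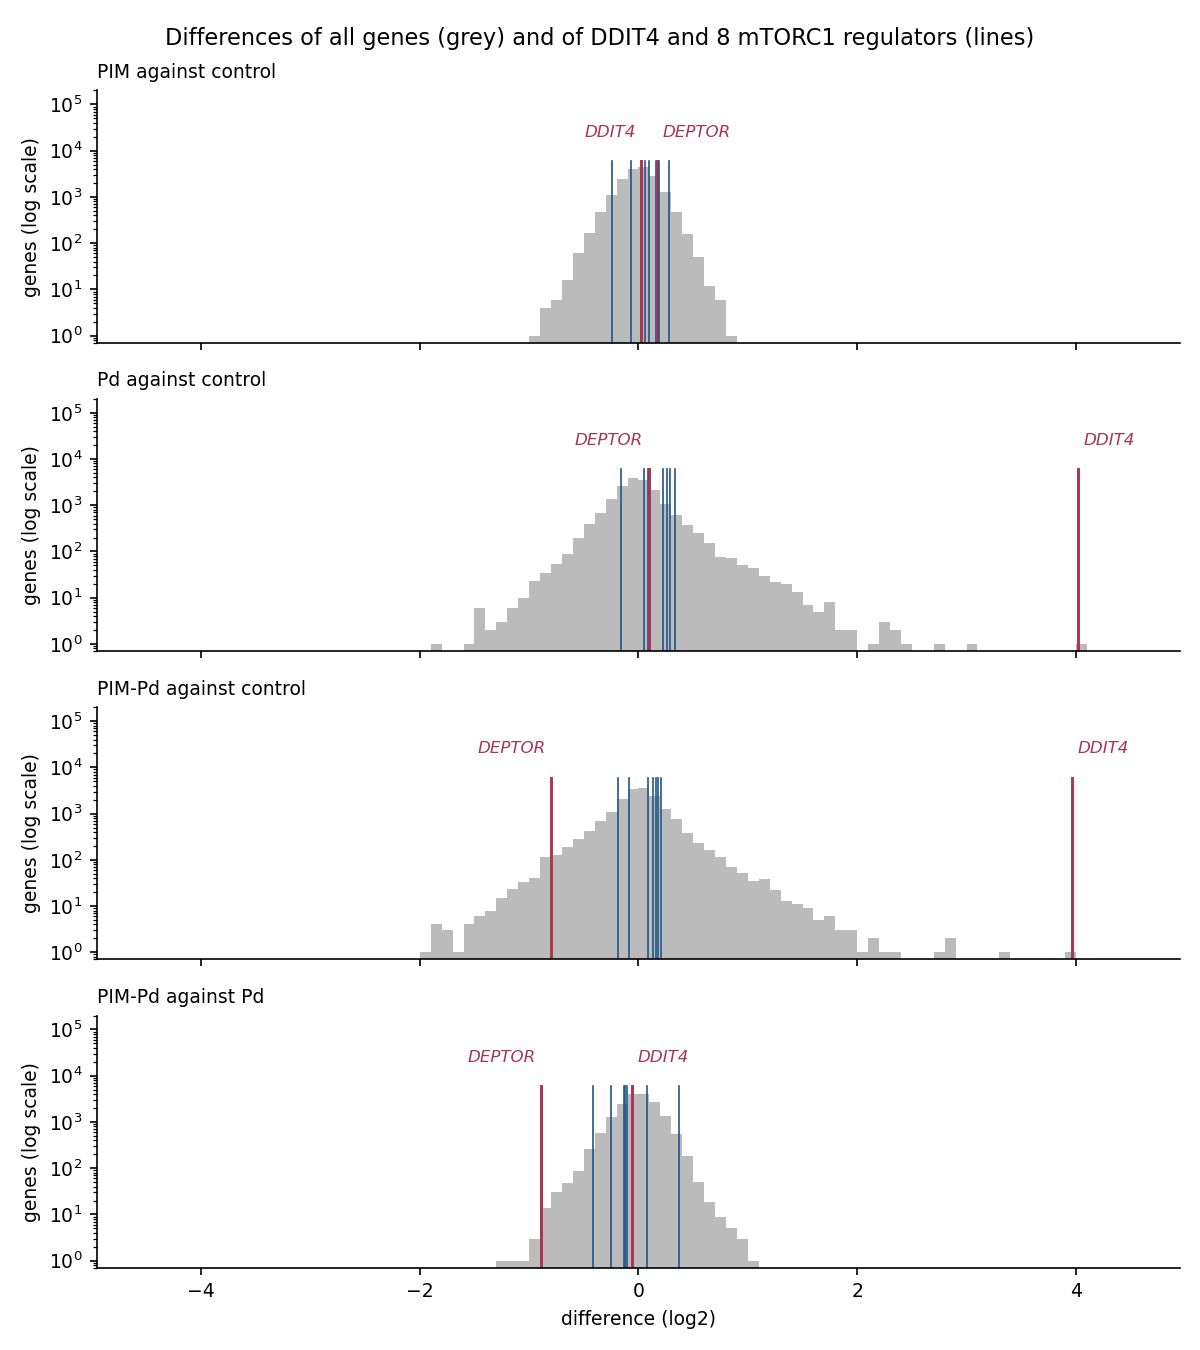
Number of genes (vertical axis, log scale) by log2 difference (horizontal axis) in 4 comparisons, for 17710 genes in grey, with vertical lines for DDIT4 and DEPTOR (red) and for the other 7 mTORC1 regulators (blue). DDIT4 stood at 4.02 in Pd and 3.96 in PIM-Pd against control, and DEPTOR at -0.89 in PIM-Pd against Pd.

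Other genes of the mTORC1 network were listed by role, 82 beside the 9, but row identifiers could be matched to symbols for just 11 of them. Those 11 are genes that the study itself had listed as altered in these samples, so their counts are not independent evidence and say nothing of the 71 that could not be matched. Of the 11, limma called 0 in PIM against control (2 at an unadjusted p below 0.05), beside 0% of all genes. It called 4 in Pd against control (1 higher and 3 lower), beside 5.42% of all genes. For PIM-Pd against control it called 10 (4 higher and 6 lower), beside 9.44%. In PIM-Pd against Pd it called 0 beside 0.0791%, with 4 at an unadjusted p below 0.05. In PIM-Pd against PIM it called 6 (3 higher and 3 lower) beside 5.66%. Leaving out 1 array ended the MLST8 call there in 4 of 6 cases and the INSR call in 2 of 6. With the experiment as a block, PHLPP2 (adjusted p = 0.0380, limma) and PDCD4 (adjusted p = 0.0253, limma) were also below the threshold in that comparison. Over the 11 matched network genes the median difference was -0.36 in Pd and -0.39 in PIM-Pd against control, beside -0.0089 and 0.0084 over all genes.

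On the input side, the PI3K-AKT list had 5 identified genes of 20. PIK3IP1, an inhibitor of PI3K at the plasma membrane, was at 5.34, 5.81 and 5.88 in control, 6.64, 6.57 and 6.76 in Pd and 6.91, 7.25 and 7.33 in PIM-Pd. It rose by 0.98 ± 0.15 in Pd (adjusted p = 0.00104, limma) and by 1.49 ± 0.15 in PIM-Pd (adjusted p = 3.23e-05), and every treated array of both groups lay above the control arrays. The insulin receptor gene INSR rose by 0.66 ± 0.13 in PIM-Pd (adjusted p = 0.00525, limma), with all 3 arrays above control.

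Of the other 3 on that list, AKT1, the kinase that inactivates TSC2, fell by 0.65 ± 0.15 in PIM-Pd (adjusted p = 0.0134, limma). PHLPP2, a phosphatase acting on AKT, fell by 0.58 ± 0.14 (adjusted p = 0.0196, limma). GRB10, an adaptor that restrains the insulin receptor, rose by 0.39 ± 0.12 (adjusted p = 0.0450, limma). All 3 PIM-Pd arrays lay on 1 side of the control arrays for each of these genes, but the 3 calls depended on single arrays. Leaving out 1 array ended the AKT1 call in 2 of 6 cases (control replicate 3 and PIM-Pd replicate 1, adjusted p from 0.0633 to 0.0739). It ended the PHLPP2 call in 4 of 6 (control replicates 2 and 3, PIM-Pd replicates 1 and 2, from 0.0527 to 0.0922) and the GRB10 call in 4 of 6 (control replicates 1 and 3, PIM-Pd replicates 1 and 2, from 0.125 to 0.165). The GRB10 call was also lost when arrays were centred on their medians (adjusted p = 0.0683).

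Near the complex itself, 1 subunit and 1 component of the amino acid sensing branch could be matched. SEH1L, a component of the GATOR2 complex that relays amino acid supply and also of the nuclear pore, was at 8.70, 8.40 and 8.55 in control and at 7.24, 7.62 and 7.56 in PIM-Pd. It fell by 1.07 ± 0.15 (adjusted p = 0.000361, limma), with all 3 arrays below control. In Pd it fell by 0.57 ± 0.15 (adjusted p = 0.0332, limma), a call lost in 5 of 6 cases when 1 array was left out (every array except control replicate 2, from 0.0689 to 0.148). MLST8, the subunit shared by both mTOR complexes, fell by 0.40 ± 0.11 in Pd (adjusted p = 0.0442, limma) and by 0.39 ± 0.11 in PIM-Pd (adjusted p = 0.0313), with all 3 arrays of each group below control. The MLST8 call in Pd was lost whichever of the 6 arrays was left out (0.0948 to 0.129), and that in PIM-Pd in 5 of 6 cases (every array except PIM-Pd replicate 2, 0.0707 to 0.106). RICTOR, the defining subunit of mTORC2, differed by 0.46 ± 0.17 in PIM-Pd and was not called (adjusted p = 0.112, limma). With the experiment as a block its adjusted p was 0.0288.

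Downstream of mTORC1, 3 genes of 15 could be matched. EIF4EBP1, the translation repressor that mTORC1 switches off by phosphorylation, was at 7.78, 8.13 and 7.83 in control and at 6.82, 7.43 and 6.93 in PIM-Pd. It fell by 0.85 ± 0.16 (adjusted p = 0.00329, limma). In Pd it differed by -0.52 ± 0.16 and was not called (adjusted p = 0.0753, limma), with an adjusted p of 0.0338 under the block. With PIM447 alone EIF4EBP1 differed by -0.40 ± 0.16, all 3 arrays below control, and was not called (adjusted p = 0.750, limma). PDCD4, an inhibitor of the helicase EIF4A, was at 6.71, 5.97 and 6.16 in control and 7.44, 7.63 and 7.65 in PIM-Pd, and rose by 1.29 ± 0.20 (adjusted p = 0.000751, limma). With PIM447 alone PDCD4 differed by 0.60 ± 0.20, at rank 45 of 17710 genes by absolute size. There its arrays overlapped with control, and it was not called (adjusted p = 0.667, limma). LARP1, which binds messenger RNAs of the translation machinery, was at 9.19, 9.39 and 9.32 in control and at 8.74, 8.50 and 8.55 in PIM-Pd, and fell by 0.70 ± 0.11 (adjusted p = 0.00113, limma). In Pd LARP1 fell by 0.50 ± 0.11 (adjusted p = 0.0167, limma), a call lost in 4 of 6 cases when 1 array was left out (control replicates 2 and 3, Pd replicates 1 and 3, from 0.0631 to 0.0793). In PIM-Pd, all 3 arrays of each of these genes lay on 1 side of the control arrays. These are transcript levels, and the arrays do not measure the activity of mTORC1.

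**Figure D5:**
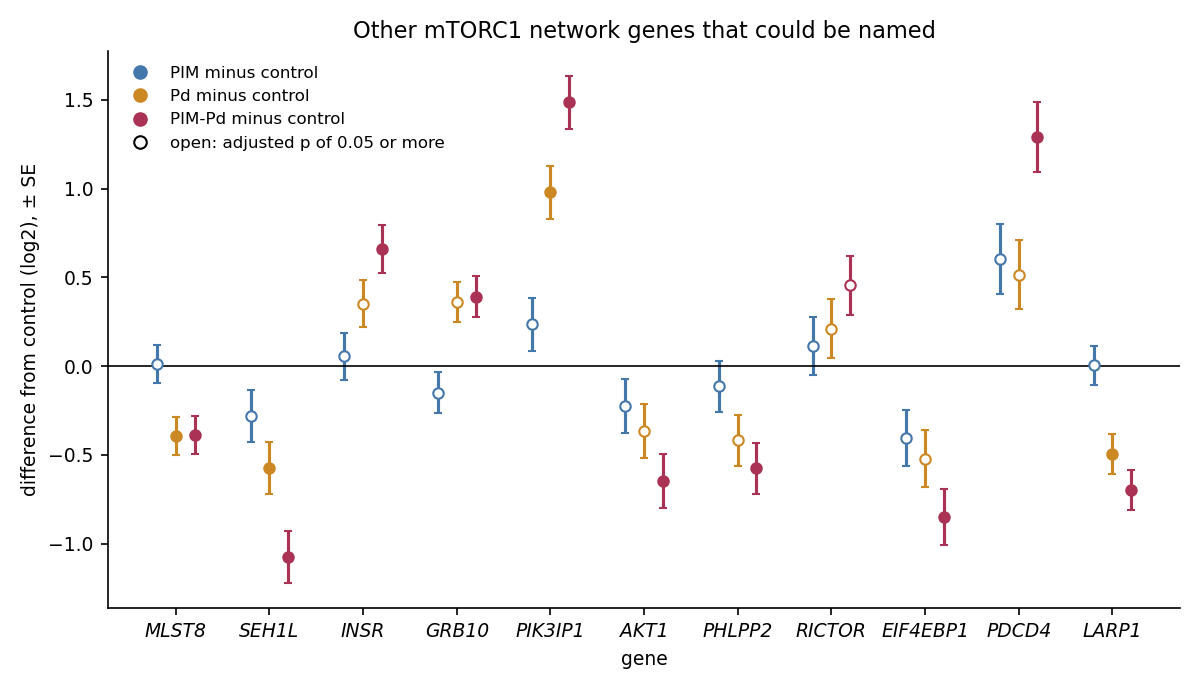
Difference of each treated group from control (log2, vertical axis, with its standard error) for the 11 other mTORC1 network genes that could be named; filled points have an adjusted p below 0.05 in limma. PIK3IP1 (1.49) and PDCD4 (1.29) were highest and SEH1L (-1.07) lowest in PIM-Pd.

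Genes of programmes that DDIT4 is known to belong to were counted as well, again among genes the study had listed. The share of all genes called was 5.42% in Pd and 9.44% in PIM-Pd against control. Since the matched genes had been listed as altered in these samples, nothing is read from the counts of these lists. Of 10 glucocorticoid receptor targets 5 were identified, and limma called 2 higher and 0 lower in Pd against control, and 3 higher and 1 lower in PIM-Pd. They included TSC22D3 (the leucine zipper protein GILZ), 2.49 ± 0.20 higher in Pd and 2.82 ± 0.20 in PIM-Pd, and FKBP5, 1.73 ± 0.18 and 1.79 ± 0.18 higher, for which all 3 arrays of each group lay above control and the calls were kept whichever array was left out. In Pd the other 3 were not called. KLF9 differed by 0.32 ± 0.15 (adjusted p = 0.284, limma), ERRFI1 by -0.45 ± 0.17 (adjusted p = 0.186, limma) and SGK1 by -0.59 ± 0.25 (adjusted p = 0.232, limma), with all 3 SGK1 arrays below control. The other 2 calls in PIM-Pd, KLF9 (higher) and ERRFI1 (lower), were each lost in 5 of 6 cases when 1 array was left out. For KLF9 these were all arrays except control replicate 2 (limma adjusted p from 0.0501 to 0.134), and for ERRFI1 all except control replicate 1 (0.0548 to 0.223).

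Of 10 ATF4 targets 5 were identified. Beside 5.42% of all genes called in Pd and 9.44% in PIM-Pd, 5 of these targets were called lower in Pd and 4 in PIM-Pd. With 1 array left out, 2 to 4 of them were called lower in Pd and 3 to 5 in PIM-Pd. The TRIB3 call in Pd was lost whichever array was left out (limma adjusted p from 0.0547 to 0.170) and the ASNS call in Pd without any array except control replicate 3 (0.0513 to 0.187). In PIM-Pd ASNS differed by -0.83 ± 0.28 and was not called (adjusted p = 0.0786, limma), with an adjusted p of 0.00483 under the block. The SLC7A11 calls were lost in 3 of 6 cases each, in Pd without control replicate 1 or Pd replicate 2 or 3 (0.0725 to 0.128), and in PIM-Pd without control replicate 1 or PIM-Pd replicate 2 or 3 (0.0538 to 0.119). With the experiment as a block and all arrays, the SLC7A11 adjusted p was 0.000209 in Pd and 0.000267 in PIM-Pd (limma). PSAT1, an enzyme of serine synthesis, differed by -1.41 ± 0.20 in Pd and -1.44 ± 0.20 in PIM-Pd, and these calls were kept in all cases. The PHGDH calls, at -1.11 ± 0.18 and -0.85 ± 0.18, were also kept in all cases, as was the TRIB3 call in PIM-Pd (-0.86 ± 0.12). In PIM against control PSAT1 differed by -0.86 ± 0.20 and SLC7A11 by -0.99 ± 0.27, at ranks 4 and 1 of 17710 genes by absolute size, with all 3 arrays below control. Neither was called (adjusted p = 0.666 for both, limma). The median difference of the 5 from control was -0.51 in PIM, -1.11 in Pd and -0.86 in PIM-Pd.

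Of 10 hypoxia-inducible factor targets 2 were identified, with 1 higher in Pd, and 1 higher and 1 lower in PIM-Pd. The higher one was P4HA1, which rose by 1.20 ± 0.17 in Pd (adjusted p = 0.000654, limma) and by 1.58 ± 0.17 in PIM-Pd (adjusted p = 5.68e-05), with both calls kept whichever array was left out. The lower one, VEGFA, lost its call without any array except PIM-Pd replicate 1 (limma adjusted p from 0.0612 to 0.109). Of 14 p53 targets 4 were identified, with 1 higher in Pd, and 2 higher and 1 lower in PIM-Pd. The call in Pd was that of CDKN1A, lost whichever array was left out (limma adjusted p from 0.0709 to 0.153), and its call in PIM-Pd was lost without control replicate 1 or PIM-Pd replicate 3 (0.0540 to 0.0626). Centring arrays on their medians also ended the CDKN1A call in Pd (adjusted p = 0.0602, limma). In PIM against control CDKN1A differed by -0.59 ± 0.15, at rank 52 of 17710 genes, with all 3 arrays below control, and was not called (adjusted p = 0.666, limma). In PIM-Pd, TP53I3 rose by 0.86 ± 0.17 (adjusted p = 0.00538, limma) and AEN fell by 0.66 ± 0.13 (adjusted p = 0.00527, limma), calls kept whichever array was left out. Of 10 FOXO targets 3 were identified, with 2 higher in Pd and 3 higher in PIM-Pd. KLF6 rose by 0.74 ± 0.11 in Pd (adjusted p = 0.00105, limma) and by 0.88 ± 0.11 in PIM-Pd (adjusted p = 0.000207), with both calls kept whichever array was left out. The TXNIP call was lost without control replicate 1 or Pd replicate 3 in Pd (limma adjusted p from 0.0594 to 0.0683), and without control replicate 1 or PIM-Pd replicate 3 in PIM-Pd (0.107 to 0.110). With the experiment as a block and all arrays, its adjusted p was 0.000814 in Pd and 0.00206 in PIM-Pd (limma). The CCNG2 call in PIM-Pd was lost in 4 of 6 cases (control replicates 1 and 3, PIM-Pd replicates 2 and 3, from 0.0544 to 0.152) and when arrays were centred on their medians (adjusted p = 0.0577, limma). None of the 5 lists had a call in PIM against control or in PIM-Pd against Pd, where 0% and 0.0791% of all genes were called.

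Of 27 cell type markers 4 could be matched, again among genes the study had listed as altered in these samples. Their calls are therefore not independent evidence. The share of all genes called was 5.42% in Pd and 9.44% in PIM-Pd against control. The myeloma cell markers IRF4, CD38 and SLAMF7 ranged over the 12 arrays from 8.89 to 10.24, 8.16 to 9.03 and 9.37 to 10.13. CD3E, a marker of T cells, ranged from 3.82 to 4.88. IRF4, a transcription factor of plasma cells, fell by 1.10 ± 0.13 in Pd (adjusted p = 0.000192, limma) and by 1.12 ± 0.13 in PIM-Pd (adjusted p = 0.000118), all 3 arrays of each below control. SLAMF7 differed by -0.50 ± 0.16 in Pd (adjusted p = 0.0839, limma), with all 3 arrays below control, and by -0.19 ± 0.16 in PIM-Pd (adjusted p = 0.596, limma). CD3E differed by -0.47 ± 0.18 in Pd (adjusted p = 0.166, limma), with all 3 arrays below control, and by -0.57 ± 0.18 in PIM-Pd (adjusted p = 0.0573, limma), where the arrays overlapped. These differences of SLAMF7 and CD3E were not called. With the experiment as a block SLAMF7 in Pd (adjusted p = 0.0260, limma) and CD3E in PIM-Pd (adjusted p = 0.0482, limma) were below the threshold. The part of these genes in the DDIT4 values was not tested. CD38 differed by 0.42 ± 0.12 in PIM-Pd (adjusted p = 0.0463, limma), with all 3 arrays above control, a call lost in 5 of 6 cases when 1 array was left out (every array except PIM-Pd replicate 1, from 0.0692 to 0.156).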

How the data were processed

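Total RNA from 12 MM.1S cultures was hybridised to Clariom S human arrays. The authors deposited log2 values, summarised per gene by RMA with a custom gene annotation, per the labels in oligo 1.44.0 under R 3.5.0. A genome build is not given in the sources used here. Values were used as deposited, with no filter. A linear model with 4 group means was fitted to all 17710 genes in limma 3.58.1 (R 4.3.3), with empirical Bayes moderation and Benjamini-Hochberg adjustment, and was tested on simulated data. The labels number the experiments 1 to 3. Deviations from group means correlated by over 0.1 in 9 of 18 pairs of arrays with the same number, but in 1 of 6 for replicate 2. In the titles, each replicate number stands on 1 array of every group. The block by number is an alternative.

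The 9 genes and the lists were chosen with earlier results of these data known. Named were the 9 genes, network genes called in a comparison, the 10 genes most correlated with DDIT4 and up to 3 called genes of each target list, in PIM-Pd against control. RICTOR, ASNS, PHGDH, KLF9 and SGK1, outside that rule, were named after their values were seen, as were the matched cell type markers. Symbols of 1901 identifiers came from the study's gene lists, and other identifiers could not be matched. Alternatives were median centring, a low-value filter, trended robust moderation, fits of the compared groups alone, leaving out each array and a 2-fold minimum.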

Additional observations from a re-analysis of the deposited data

Results flagged for a closer look

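The search covered 44 genes: the 9, the 11 matched network genes, the 10 most correlated with DDIT4 and 14 genes of the target lists. In 3 of them, 1 difference kept the same sign in all 3 experiments, and the same difference in the presence of the other treatment kept the opposite sign in all 3. Over all 17710 genes 5.58% met the same rule, which for 44 genes is 2.46, so nothing is read from the number. For DEPTOR, PIM minus control was 0.17, 0.16 and 0.18 log2 in experiments 1, 2 and 3, and PIM-Pd minus Pd was -1.18, -0.19 and -1.29. The mean difference with PIM447 thus differed by -1.06 log2 between cells with and without pomalidomide and dexamethasone. For MTOR, Pd minus control was 0.13, 0.40 and 0.13, and PIM-Pd minus PIM was -0.039, -0.54 and -0.16. The mean difference with pomalidomide and dexamethasone differed by -0.47 log2 between cells with and without PIM447. For these 2 genes the difference was not tested on its own, as they were chosen with their values known, and neither was called for it in the fit over all genes.

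For TXNIP, a FOXO target that encodes a thioredoxin-binding protein, PIM minus control was 0.31, 0.31 and 0.17, and PIM-Pd minus Pd was -0.61, -0.24 and -0.071. These means differed by -0.57 ± 0.52 log2 (adjusted p = 0.967, limma), which did not pass the test. With the experiment as a block the standard error was 0.34 and the adjusted p 0.830 (limma). The value depended on single arrays: it was -0.15 without control replicate 1, -0.34 without PIM replicate 3, -0.87 without PIM-Pd replicate 3 and -0.96 without PIM replicate 1. The mean of PIM minus control for TXNIP was 0.26 with all arrays and -0.15 without control replicate 1.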

How the results depend on the processing

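Centring each array on its median shifted all genes by at most 0.041 log2. It turned the sign of 2 differences among the 9 genes, both near 0: DDIT4 in PIM against control (0.02) and SESN1 in PIM-Pd against PIM. Leaving out 1 array gave DDIT4 differences from 3.97 to 4.10 in Pd and from 3.87 to 4.04 in PIM-Pd against control. The replicate block left the differences as they were, with a standard error of 0.13 for DDIT4, and gave 0, 1181, 1934, 11, 1262 and 2 called genes in PIM, Pd and PIM-Pd against control, PIM-Pd against Pd, PIM-Pd against PIM and the departure from additivity, in place of 0, 960, 1671, 14, 1003 and 3. Among the matched network genes it changed 2 calls in comparisons with control, those of EIF4EBP1 and RICTOR given above.

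A 2-fold minimum beside the adjusted p left 191, 255, 1 and 173 called genes in Pd and PIM-Pd against control, PIM-Pd against Pd and PIM-Pd against PIM. Of the network genes it left 0 in Pd and 3 in PIM-Pd, in place of 4 and 10. In PIM-Pd against Pd, trended robust moderation gave 26 called genes, and a fit of the compared groups alone gave 1. In PIM-Pd against PIM the fit of the compared groups alone gave 455. Leaving out 1 array gave 497 to 720 called genes in Pd against control, 1096 to 1435 in PIM-Pd against control, 2 to 15 in PIM-Pd against Pd, 648 to 901 in PIM-Pd against PIM and 0 to 3 for additivity. Network genes called then ranged from 1 to 2 in Pd and from 6 to 9 in PIM-Pd. In Pd the low-value filter and trended robust moderation each gave 3 and the fit of the compared groups alone 5. In PIM-Pd centring gave 9, and trended robust moderation and the fit of the compared groups alone each gave 8. Apart from fewer arrays in a fit and the 2-fold rule itself, the cause was not tested.

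Signal over background was not available, so how far low values are limited by it is unknown. Among others, this applies to GRB10, ERRFI1 and CD3E, whose group means all lay below every array median. It also applies to SLC7A11 in the treated groups. All 9 genes passed the low-value filter.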
